A study of Arabidopsis thaliana with 6 samples.

Results

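The transcripts highest in young siliques were 104 probe sets of the 22746 on the array that are not controls (0.457%). They were selected by their own signals: the lower of the 2 silique arrays had to reach at least 2 times the highest of the 4 bud and flower arrays, with every signal under 25 counted as 25. That quotient is called the rule ratio below. Of 113 probe sets that met the rule, 9 were left out by gene name; the exclusion names 11 genes, and 2 of these did not meet the rule. Because all 6 arrays entered the selection, the excess of siliques over buds and flowers is given as a description with no test, and tests were confined to open flowers against closed buds, a contrast in which the rule sets no order.

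Arabidopsis thaliana plants, accession Landsberg erecta, were 6 weeks old, and each sample was pooled from 12 plants. The 3 stages were closed buds taken whole just ahead of pollination, flowers taken whole once open and pollinated, and siliques harvested 2 d later than pollination, from which the withering flower organs were left off. Each stage had 2 arrays from independent runs of the experiment, all of total RNA from untreated plants of this 1 accession. Signals are linear MAS5 intensities per probe set, and the number of arrays limits the precision.

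A silique is the fruit that forms from the pistil after fertilization. Its wall elongates while the ovules inside turn into seeds, whose coat forms from the ovule integuments. Growth of fruit and seed draws on enzymes that build and loosen cell walls, on the waxy cuticle that covers the outer surface, and on secreted proteins of the seed coat and the nutritive tissue inside the seed.

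The harvested organs were checked against marker genes. The 4 measured petal, stamen and nectary genes (SWEET9, TPS24, BPE and JMT) summed to 331 and 429 in buds, 2158 and 3096 in flowers, and 51.28 and 50.98 in siliques. The 10 measured tapetum and pollen genes summed to 3429 and 4384 in buds, 546 and 602 in flowers, and 341 and 385 in siliques. Both sums were lowest on the silique arrays, although the receptor kinase EMS1 stood at 215 and 216 there. SWEET8 was level between flowers (77.7 and 70.1) and siliques (75.4 and 69.4). EMS1, ANX1 and ANX2 did not share the fall of the tapetum and pollen sum from buds to flowers, unlike the other measured genes of that list. ANX2 was at 61.8 and 25.4 in buds and 111 and 151 in flowers. The anthocyanidin reductase BAN, a seed coat gene, was at 665 and 658 in siliques and at most 35.9 elsewhere. DFR, the other measured seed coat gene, was at 14.6 and 15.7 in buds, 205 and 281 in flowers, and 748 and 894 in siliques. Both met the rule before they were left out by name, so their silique excess is a description and no independent check. None of the 5 measured genes of the female gametophyte and endosperm, AGL62 among them, reached 50 on 2 arrays (0.36 to 28.2 over all arrays), and none of the embryo list was identified on the array. In whole organs, fewer cells of a type and less RNA per cell cannot be told apart.

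Of the 104 members, 64 had a single gene in the platform annotation, 2 had several and 38 had none listed; all 64 matched the RefSeq gene table and were distinct genes. Only 9 of these carried a symbol beyond the locus number, and another had a named synonym. The remaining loci are given by locus number, without a function, because the gene tables used here assign none. The 64 genes numbered 13, 15, 12, 12 and 12 on chromosomes 1 to 5. These are 20.3%, 23.4%, 18.8%, 18.8% and 18.8% of the member genes. The same chromosomes held 26.2%, 15.2%, 20.4%, 14.3% and 23.3% of the array genes, and the difference was not tested. No 2 of them were adjacent, the closest being AT1G04645 and AT1G04680 with 3 protein-coding genes between them. Of the 68 genes next to a member that had a probe set of their own, none was a member. The highest rule ratio among them was 1.497 (AT1G29670, beside AT1G29660). Members were only 0.457% of all probe sets, so none among 68 is near that share and says nothing on whether members cluster.

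Member genes were often short. Of the 64, 17 spanned under 1000 bases in the TAIR10.1 annotation (26.6%), against 356 of 6234 other single-gene probe sets that reached a signal of 50 on 2 arrays (5.71%). The median span was 1936 bases for members and 2361 bases for the others. Length was not part of the rule, and no test was run on it. The shortest were AT5G38195 at 420 bases, AT2G02515 at 470 and AT1G04645 at 494.

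The median rule ratio was 2.72 (quartiles 2.25 and 3.90, range 2.00 to 29.2), so most members lay close to the threshold. A ratio of at least 3 was reached by 35 members, of at least 5 by 17, and of at least 10 by 5. Median member signals were 25.9 and 30.1 in buds, 48.7 and 49.4 in flowers, and 247 and 199 in siliques. In buds the member median stood at the 38.4th and 41.0th percentile of all probe sets and in siliques at the 87.7th and 84.5th. Members held 0.237% and 0.244% of the summed signal in buds, 0.332% and 0.354% in flowers, and 1.49% and 1.33% in siliques.

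**Figure D1:**
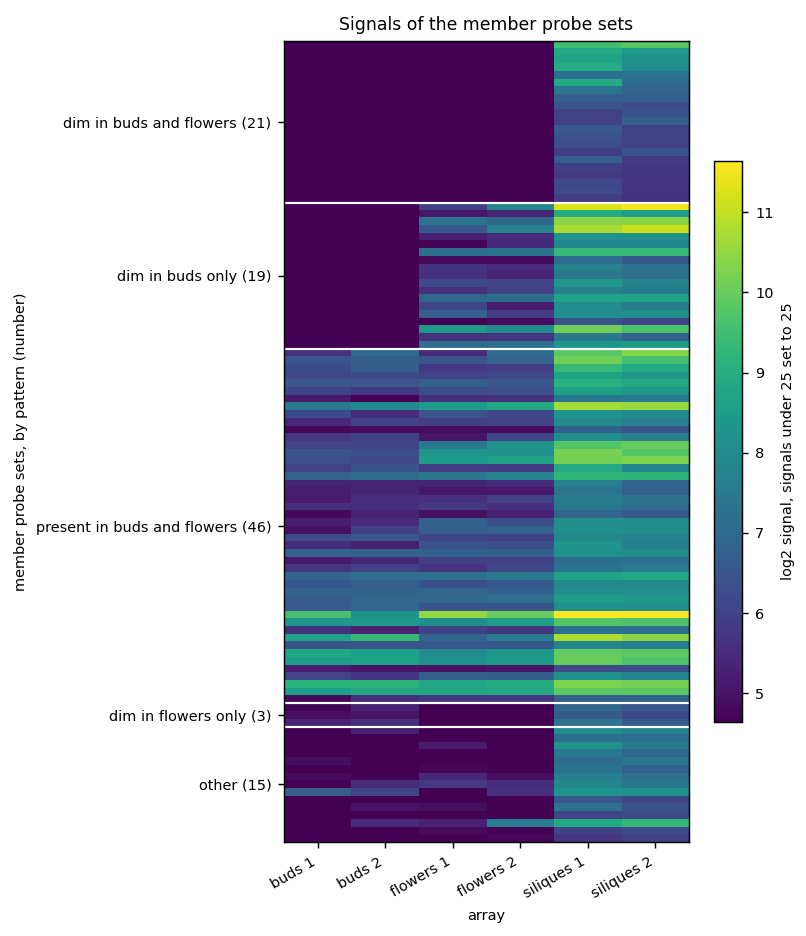
Log2 signal of the 104 member probe sets (rows) on the 6 arrays (columns), with signals under 25 drawn as 25. Rows are grouped by where the bud and flower arrays lay against 25 and sorted by rule ratio within a group; 21 members were dim on all 4 bud and flower arrays, and 46 were at 25 or more on all 4.

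The members followed several courses before the silique stage. In 21 of them all 4 bud and flower arrays were under 25, with a median silique signal of 81.4. In 19 both bud arrays were under 25 and both flower arrays at 25 or more, with medians of 10.4 in buds, 56.9 in flowers and 273 in siliques. In 46 no bud or flower array was under 25, with medians of 75.2, 90.1 and 279 in the same order. Another 3, AT3G53980, AT4G12830 and the unassigned 264577_at, were under 25 on both flower arrays and at 25 or more on both bud arrays. The other 15 were mixed.

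The highest rule ratio, 29.2, belonged to AT2G38900. Its signals were 0.595 and 2.31 in buds, 1.83 and 16.0 in flowers, and 731 and 908 in siliques. AT2G30810 had 4.71 and 1.93 in buds, 11.1 and 3.69 in flowers, and 486 and 345 in siliques, a rule ratio of 13.8. AT5G38195 had 7.77 and 8.25 in buds, 4.66 and 0.836 in flowers, and 420 and 284 in siliques, a rule ratio of 11.3. These genes lay under 25 on every bud and flower array, so the ratios are set by the floor and their order before the silique stage cannot be read. AT5G54220 was of the same kind at a lower level, with 1.48 to 4.17 on the bud and flower arrays and 163 and 122 in siliques. A probe set shared by the expansin A genes EXPA25 and EXPA23, 249502_s_at, also lay there, with 0.438 to 20.8 before the silique stage and 493 and 270 in siliques. Of 10 expansin A genes with a probe set of their own, none was a member.

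The next genes were detected in open flowers but hardly in buds. AT4G15750 was the brightest member assigned to a gene, at 13.3 and 11.7 in buds, 64.8 and 229.5 in flowers, and 2411 and 2920 in siliques (rule ratio 10.5). AT5G47350 had 15.5 and 10.7 in buds, 95.3 and 209 in flowers, and 1723 and 2222 in siliques (8.24). AT1G56100 had 0.331 and 0.296 in buds, 157 and 129 in flowers, and 1368 and 1350 in siliques (8.59). In these genes buds and flowers did not overlap, and the step from bud to flower was upward on both replicates. The step from flower to silique is fixed by the rule. AT4G35725 went the same way at a lower level, with 3.37 and 5.18 in buds, 39.2 and 46.7 in flowers, and 289 and 299.9 in siliques (6.19).

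Another set was already measurable in buds and flowers without a clear order between them. AT3G49270 had 50.2 and 131 in buds, 44.96 and 135.8 in flowers, and 904 and 1314 in siliques (6.66). AT5G01870 had 85.6 and 105 in buds, 89.9 and 116 in flowers, and 1112 and 749 in siliques (6.47). Buds and flowers overlapped in both genes, and the replicate difference within a stage was as large as any between these stages. AT2G23910 and AT2G39640 were dimmer and fell outside this set, each being under 25 on 3 of the 4 bud and flower arrays. They were at 14.6 to 37.7 and 12.7 to 25.7 before the silique stage, with 272 and 226 and with 149 and 148 in siliques.

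**Figure D2:**
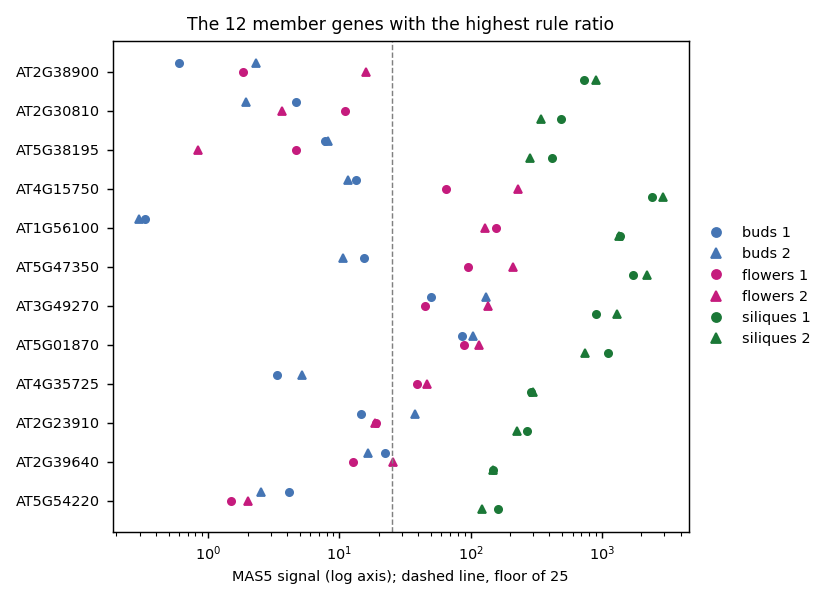
MAS5 signal (log axis) of the 12 member genes with the highest rule ratio on each array; circles are replicate 1, triangles replicate 2, and the dashed line marks 25. All silique points lie at 122 or above, and both flower points lie under the line in AT2G38900, AT2G30810, AT5G38195, AT2G23910 and AT5G54220.

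Some of the brightest probe sets had low rule ratios; brightness depends on the probes and does not rank transcript levels between genes. The brightest member, 247718_at, is paired with no listed gene and had 760 and 306 in buds, 1461 and 1043 in flowers, and 3188 and 3185 in siliques, a rule ratio of only 2.18. AT1G75900 had 182 and 255 in buds, 359 and 469.6 in flowers, and 1640 and 1508 in siliques (3.21). AT1G04680 had 550.0 and 578 in buds, 441 and 504 in flowers, and 1256 and 1166 in siliques (2.02). Their probe sets gave signals above 180 on every array, and the silique arrays stood above those of the earlier stages, as the rule requires. AT2G45180 was at 455 and 387 in buds, 257 and 326 in flowers, and 996 and 944 in siliques (2.07). AT5G47190 was at 384 and 451, 455 and 468, and 944 and 939.7 in the same order (2.01). Mean silique signals of at least 1000 were found in 10 members, of at least 500 in 23, and of at least 100 in 84.

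On either side of the threshold the values ran on without a gap. Just inside lay AT4G11100 (rule ratio 2.001), AT5G47190 (2.009), AT1G04680 (2.02) and AT1G01250 (2.02). Just outside lay AT2G32580 (1.99), AT1G14730 (1.98), AT1G03820 (1.97) and AT1G73560 (1.97). AT2G32580, for example, had 124 and 109 in buds, 119 and 122 in flowers, and 270.2 and 247 in siliques.

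The members of a single gene with a gene symbol or a named synonym numbered 10. SHN3 encodes an AP2/ERF transcription factor of the SHINE clade, whose members promote the formation of the cuticle. It had 73.6 and 44.2 in buds, 88.5 and 69.0 in flowers, and 295 and 264 in siliques (rule ratio 2.98). AT4G13840, listed with the synonym ECERIFERUM 26, belongs to a group of proteins needed to elongate the longest fatty acid chains of leaf wax. It had 5.62 and 17.0 in buds, 2.86 and 20.12 in flowers, and 93.8 and 64.3 in siliques (2.57). Both cuticle genes had overlapping bud and flower signals, with silique signals above all of them as the rule requires.

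GH9A3, also KOR3, encodes a glycosyl hydrolase of the KORRIGAN group, membrane-bound endoglucanases related to the one that takes part in cellulose formation. It had 43.5 and 66.9 in buds, 60.5 and 63.7 in flowers, and 243 and 199 in siliques (2.98). BGLU15 encodes a beta glucosidase, an enzyme that releases glucose from glycosides. It was at 53.6 and 64.1 in buds, 52.9 and 71.5 in flowers, and 164 and 189 in siliques (2.29). In both, bud and flower arrays overlapped. FOLB1, an aldolase of folate synthesis, was one of the dimmest members, at 12.3 to 21.9 before the silique stage and at 71.5 and 52.7 in siliques (2.11).

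TRICHOME BIREFRINGENCE-LIKE proteins include enzymes that acetylate cell wall polysaccharides. TBL36 had 46.0 and 38.0 in buds, 86.2 and 81.7 in flowers, and 309 and 201 in siliques (2.33). TBL41 had 17.3 and 22.6 in buds, 51.3 and 53.2 in flowers, and 170 and 116 in siliques (2.19). In both genes the flower arrays lay above the bud arrays without overlap, and the rule itself places the silique arrays above both. Serine carboxypeptidase-like proteins are secreted or vacuolar enzymes, some of which transfer acyl groups. The 3 members of that family were scpl20, with 66.2 and 54.7 in buds, 79.5 and 82.0 in flowers, and 391 and 323 in siliques (3.93), SCPL27 and scpl21. SCPL27 was nearly level before the silique stage, at 28.4 to 29.2, and had 120 and 86.5 in siliques (2.96). The dimmer scpl21 was at 5.97 to 13.5 and then at 77.9 and 63.4 (2.54).

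**Figure D3:**
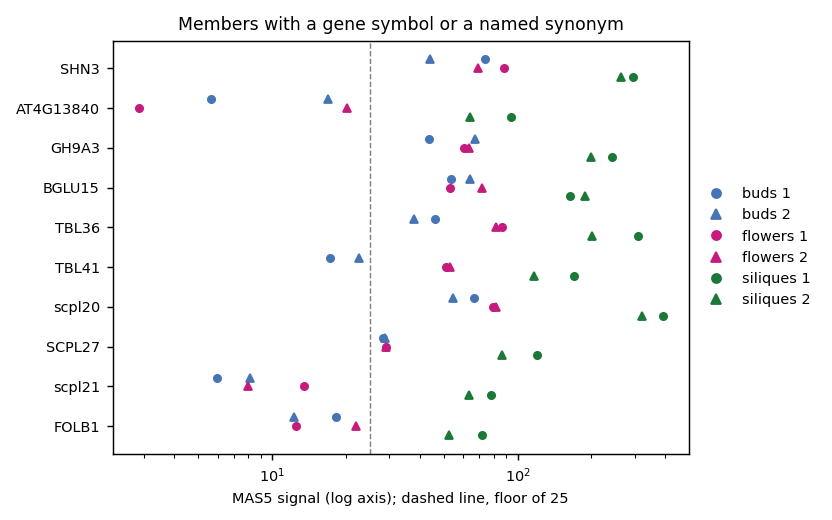
MAS5 signal (log axis) on each array of the 10 single-gene members with a gene symbol or a named synonym. Circles are replicate 1, triangles replicate 2, and the dashed line marks 25. Both silique points lie to the right of the other 4 in every gene, as the rule requires. Only TBL36, TBL41, scpl20 and, by under 1 signal unit, SCPL27 show flower points above both bud points.

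Membership did not extend across these families. Of 29 serine carboxypeptidase-like genes with a probe set of their own, 18 reached 50 on 2 arrays and 3 were members. The next of the 18 was SCPL34 (rule ratio 1.39), and others ran the other way: scpl48 had 984 and 956 in buds, 1326 and 1085 in flowers, and 318 and 316 in siliques. Of 22 TRICHOME BIREFRINGENCE-LIKE genes 12 reached 50 and 2 were members, TBL25 (1.58) coming next of the 12. TBL15, outside the 12, had a rule ratio of 1.75, with 1.36 to 14.5 in buds and flowers and 69.8 and 43.7 in siliques. Among 15 glycosyl hydrolase 9 genes 9 reached 50, with GH9A3 inside and GH9B5 just outside at 1.90. GH9B5 had 77.4 and 69.7 in buds, 43.8 and 46.0 in flowers, and 160 and 147 in siliques. GH9B9 and GH9B10 share a probe set, 267394_s_at, which was a member but lies outside this count. It was at 2.86 to 8.05 before the silique stage and at 106 and 56.8 in siliques (2.27). Of 20 beta glucosidase genes 10 reached 50 and BGLU15 alone was a member, whereas BGLU36 was at 183 and 59.1, 426 and 322, and 53.5 and 127 over the stages. The families were picked from the members' symbols, so these counts are a description.

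**Figure D4:**
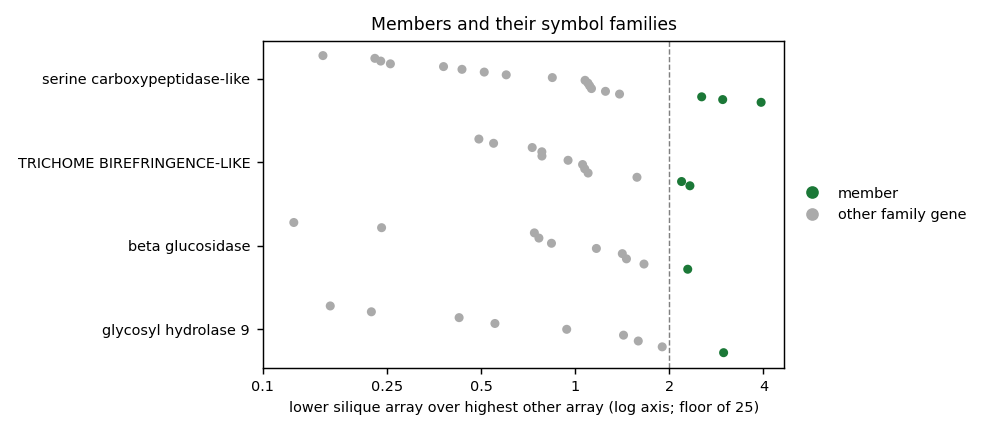
Rule ratio (log axis) of genes of 4 symbol families with a probe set of their own. Genes shown reached a signal of 50 on at least 2 arrays, members in green and other genes in grey. The dashed line marks the threshold of 2. Members number 3, 2, 1 and 1 from top to bottom, and within each family other genes spread down to 0.49 or less.

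The lists used for fruit patterning, seed coat, endosperm, embryo, cell division, gibberellin, auxin and cytokinin held no member, and only 0 to 5 genes of each had a probe set of their own in the annotation. For the seed coat this follows from the exclusion by name, since both of its measured genes, BAN (rule ratio 18.3) and DFR (2.66), met the rule and were left out. The hormone genes IAA31 (6.17), RR22 (8.04) and GH3.3 (2.02) met it and were left out in the same way. Of the 4 fruit patterning genes, ALC, which helps form the zone where the fruit opens, was at 309 and 223 in buds, 238 and 171 in flowers, and 327 and 292 in siliques. INO, a regulator of the outer integument, was at 70.2 and 71.8, 77.6 and 67.6, and 55.1 and 76.1 over the stages. The mitotic kinases AUR1 and AUR2 summed to 239 and 255 in buds, 233 and 231 in flowers, and 173 and 172 in siliques. None of these genes reached a rule ratio near the threshold.

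Open flowers against closed buds asked whether the transcripts highest in young siliques already differed between the earlier stages. In this contrast 24 of the 104 members were higher in flowers (23.1%), 1 was lower (0.962%) and 79 did not pass. Across all 12075 probe sets tested, 4.53% were higher in flowers and 6.13% lower (10.7% in either direction). The test was limma's moderated test on log2(signal + 10) over all 6 arrays, with Benjamini-Hochberg adjusted p under 0.05 as the call. Every member passed the filter of a signal of 50 on at least 2 arrays, since the rule itself puts both silique arrays there; some never reach 50 in buds or flowers, such as AT1G09370, AT4G35725 and AT5G05960. With no filter at all, 21 of 104 members (20.2%) were higher, against 2.38% of all 22746 probe sets. That 2.38% takes in the 10671 dim probe sets below the filter. Neither background was matched to the members in signal, so these shares are a description. The median log2 change was 0.32 for members and −0.01 for all probe sets tested, and 73 of 104 members (70.2%) had a positive change, against 48.0% of all. These values for members include the 21 that were under 25 on all 4 bud and flower arrays. In those 21 the order of buds and flowers cannot be read.

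Both flower arrays lay above both bud arrays in 57 members (54.8%, against 25.8% of all probe sets tested), both lay below in 16 (15.4%, against 29.5%), and 31 overlapped. The members under 25 on all 4 of these arrays are counted here too. Scaling each array to a common median moves the change of a typical probe set by 0.10 and gave 28 members higher and 1 lower, while over all probe sets the calls became 704 higher and 605 lower in place of 547 and 740. With fit and filter confined to the 4 bud and flower arrays, 55 members were no longer tested and 15 of the other 49 were higher (30.6%), against 3.89% of the 11659 probe sets tested. Those 49 include members that passed this filter through the flower arrays alone, so that share is a description. The sum of the petal, stamen and nectary markers above also stood higher in flowers than in buds. BPE did not follow it, at 88.4 and 127 in buds and 99.6 and 78.5 in flowers. The part of these markers in the members' rises was not tested.

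**Figure D5:**
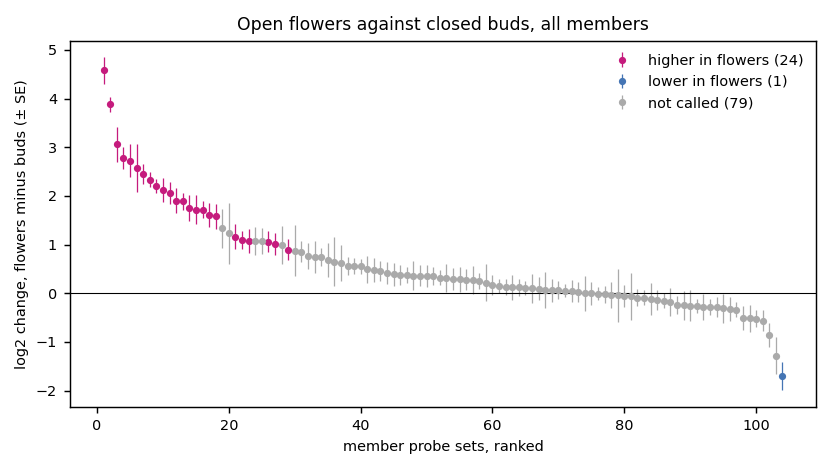
Log2 change of open flowers minus closed buds, with limma's standard error, for the 104 members in descending order. The 24 members called higher run from 0.90 to 4.58 and occupy most of the left end, and the 1 called lower is at −1.70.

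Of the 24, 15 were assigned to a single gene. AT3G24510 had the largest change: it was at 341 and 249 in flowers, against 5.33 and 0.385 in buds, a log2 change of 4.58 ± 0.27 (SE; limma adjusted p = 0.000387). Its silique signals were 1098 and 788. AT1G56100, whose signals are given above, had a log2 change of 3.88 ± 0.15 (adjusted p = 0.00035). Buds of these genes were near 0, so the size of the change rests on the offset (3.22 to 6.63 and 2.43 to 6.77 over the alternatives), while both genes kept their calls in all 15 alternatives.

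AT5G09370 was at 150.1 and 164 in flowers, against 20.2 and 3.202 in buds (log2 change 3.06 ± 0.36, or 2.14 to 4.06 over the alternatives), and reached 641 and 638 in siliques. AT2G02515 was at 74.9 and 63.7 in flowers, against 2.29 and 0.744 in buds (2.78 ± 0.22, or 1.59 to 4.87 over the alternatives), and at 312 and 217 in siliques. AT4G21630 was at 141 and 146 in flowers, against 22.6 and 18.3 in buds (2.34 ± 0.15), and at 319 and 363 in siliques. In these the flower arrays were close to each other and far from the buds. The further step upward in siliques is required by the rule. AT5G47350 rose by 2.72 ± 0.34 and AT4G15750 by 2.57 ± 0.49, with flower arrays that differed from each other by more than 2 times. The call of AT4G15750 was lost without buds 1 or without buds 2 (adjusted p up to 0.118). AT3G14520, AT1G09370 and AT4G35725 had changes of 2.07 ± 0.22, 1.90 ± 0.25 and 1.89 ± 0.18, from flower signals of 28.3 to 65.0 and bud signals of 0.318 to 8.34. Against such dim buds the sizes again rest on the offset, at 1.22 to 3.11, 0.91 to 4.49 and 1.05 to 3.08 over the alternatives.

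The weaker rises included AT5G49180 and AT1G29660, whose bud signals were all above 50. AT5G49180 was at 309 and 283 in flowers, against 86.8 and 79.5 in buds (1.72 ± 0.17), and at 1171 and 894 in siliques. AT1G29660 was at 178 and 295 in flowers, against 68.0 and 68.9 in buds (1.61 ± 0.24), and at 867 and 1033 in siliques; its call was lost without buds 2 (adjusted p = 0.0671). TBL41 was the only symbol-bearing member called, with a change of 1.06 ± 0.22 (adjusted p = 0.0287), and lost the call without any 1 of the 4 flower and bud arrays (up to 0.152). TBL36, at 0.86 ± 0.22, did not pass (adjusted p = 0.0597). It was called in 6 of 15 alternatives, among them quantile normalization, median scaling and the replicate number as a block (0.032). AT5G05960 and AT1G75900, at 1.07 ± 0.24 and 0.90 ± 0.21, also lost their calls without any 1 of these 4 arrays, and AT1G75900 without either silique array and in 4 other settings too. Of the 24 calls, 13 held in every fit that left out 1 array and in which the probe set could be tested.

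The single member called lower was 264007_at, which is paired with no listed gene. It was at 121 and 192 in flowers, against 418 and 638 in buds (log2 change −1.70 ± 0.29, adjusted p = 0.0137), with 1758 and 1366 in siliques. It thus had its lowest level in the open flower; the call was lost without flowers 1 or without buds 2 (up to 0.092). AT1G04040 had the same order of stages, at 16.5 and 48.8 in flowers and 107 and 68.9 in buds, but did not pass (adjusted p = 0.0862).

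Open flowers had reached a median of 26.3% of the silique signal (quartiles 14.7% and 32.5%) and closed buds 16.0% (5.12% and 28.7%). The rule holds each of these at 50% or less. These shares use the signals without the floor of 25, so the medians include values too dim to read. At the low end, flowers stood at under 2% of the silique signal in AT5G38195, AT2G38900, AT5G54220, AT2G19970, AT2G30810 and the unassigned 260166_at. All of these were under 25 on every bud and flower array, so their shares cannot be ranked. AT2G19970 and 260166_at were also dim in siliques, at 77.5 and 52.2 and at 56.9 and 54.2 (rule ratios 2.09 and 2.17).

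Between the silique replicates most members were higher on siliques 1. Of the 104, 27 were higher on siliques 2 than on siliques 1 (26.0%), against 47.6% of 9804 other probe sets with both silique arrays at 50 or more, and the median quotient of siliques 2 over siliques 1 was 0.882 for members and 0.989 for the others. Only 10 members differed by more than 1.5 times between the silique arrays (9.62%, against 7.79% of the others), and 1 by more than 2 times: the unassigned 249227_at, at 486 and 136. Several bright genes went against this lean: AT4G15750, AT5G47350, AT3G49270, AT2G38900 and AT1G29660 were higher on siliques 2. Flowers 2 was above flowers 1 in 20 of the 27 members that were higher on siliques 2 (74.1%) and in 38 of the other 77 (49.4%). Across members the replicate 2 minus replicate 1 differences of siliques and flowers correlated at r = 0.29 (rho 0.28, n = 104), against 0.17 (rho 0.20) over 11971 other probe sets tested. For flowers and buds the values were 0.22 for members and 0.34 for the others, and for siliques and buds −0.01 for both. The points share arrays, and members are not independent.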

How the data were processed

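The deposited values are linear signal intensity, 1 per array and probe set; per the submitters' processing notes the tool was MAS5, and its version and settings are not given in the sources used here. The 64 control probe sets were left out. Genes came from the platform annotation (13513 probe sets of a single gene, 503 of several, 8730 of none listed), of which 13436 matched the RefSeq table of TAIR10.1.

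Members were found by the rule with no further normalization. Flowers and buds were compared in limma 3.58.1 under R 4.3.3 (lmFit, contrasts.fit, eBayes with trend) on log2(signal + 10), 3 group means over 6 arrays, for 12075 probe sets with a signal of 50 on at least 2 arrays; 10671 were below. Tests were two-sided, with Benjamini-Hochberg adjustment over all probe sets tested, and ± after a change is limma's SE. The fit was tested on simulated data.

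Per the labels the whole experiment was run a second time, so arrays with the same replicate number come from 1 run and are paired. The main fit did not use this pairing. With the replicate number as a block, 28 members were higher in flowers and 1 lower, in place of 24 and 1. Replicate differences correlated at 0.34 for flowers and buds, −0.01 for siliques and buds and 0.17 for siliques and flowers.

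The members and lists were chosen with earlier results of these data known. Named were the 12 member genes of highest rule ratio, the 10 brightest, up to 10 called in each direction, up to 4 per keyword group, and the 4 on each side of the threshold; other named genes, including every member with a symbol, were chosen after their values were seen. Keyword groups of gene symbols placed only 5 of the 64 member genes (2 of cell wall, 3 of protein turnover), because most loci carry no symbol; 1 keyword was corrected after seeing false matches. Promoter motifs were planned but not analysed here.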

Additional observations from a re-analysis of the deposited data

How the results depend on the processing

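The number of members followed the settings of the rule: 157 with a floor of 10, 35 with a threshold of 3 times and 365 with 1.5 times, in place of 104. A floor of 50 gave 79, quantile normalization 111 (98 of them the same) and median scaling 149. Leaving out 1 array or a whole replicate gave 113 to 320 probe sets, since fewer conditions then apply: 165 without siliques 1, 190 without siliques 2, 320 on replicate 1 alone and 217 on replicate 2 alone. Of the 320, 38.8% also met the rule on replicate 2, as did 0.954% of all probe sets.

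In open flowers against closed buds, members higher numbered 21 to 28 over the planned settings with all arrays, 15 with only the 4 bud and flower arrays, and 16 to 18 without 1 array, in place of 24; members lower numbered 0 (without flowers 1 or without buds 2) to 2 (without flowers 2), in place of 1. Over all probe sets 547 were higher (156 to 509 without 1 array; 156 without flowers 2, 203 without buds 2 and 214 without flowers 1) and 740 lower (123 to 637; 123 without buds 2, 231 without buds 1, 347 without flowers 2 and 382 without flowers 1). With the replicate block the counts were 656 higher and 834 lower, and 28 and 1 among members; it moved no count by over 1.5 times. It added calls for 247718_at, AT1G72110, TBL36 and AT1G01250 (adjusted p = 0.0397, 0.0176, 0.032 and 0.0273, against 0.0894, 0.054, 0.0597 and 0.0591) and ended none among members. The 10 called genes of largest change kept their sign under every setting in which they were tested. Among genes not called, GH9A3, BGLU15, FOLB1, AT5G01870, AT3G49270 and AT2G23910 took either sign. The promoter motif shares and their alternative were not run, as no promoter sequences were used here. With 2 arrays a stage, changes in dim probe sets rest on the offset, and 11 of the 24 rises among members were lost on leaving out at least 1 array.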
